A study of Homo sapiens with 6 samples.

Results

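The siRNAs described here target 13 genes of the mitogen-activated protein kinase kinase kinase (MAP3K) level and a relative: MAP3K1, MAP3K2, MAP3K3, MAP3K4, MAP3K5, MAP3K6, MAP3K7, MAP3K9, MAP3K10, MAP3K11, MAP3K12, MAP3K13 and TNNI3K. Their wells were found by the locus identifier of the targeted gene. All 13 genes were found, each on a single well, out of 939 library wells in the screen, and all 13 carried their current symbol. The screen was run in SUM149PT, an established cell line of triple-negative inflammatory breast cancer. Its stated aim was to find a candidate for therapy that complements the antitumour action of eicosapentaenoic acid (EPA), an omega-3 polyunsaturated fatty acid. Every library well, in both groups, was reverse-transfected at 45 nM siRNA with 750 cells and left for 48 hours. The 3 untreated samples received no EPA, and the 3 treated samples received EPA at 50 µM for a further 72 hours. A resazurin reagent, which living cells turn into a fluorescent product, was then added, and the fluorescence of each well is the value reported. All samples come from the same cell line, and it is not known from the sources used here if they were cultured separately. The p-values therefore reflect the spread among these 6 samples, which could be purely technical. The columns of the table are numbered through both groups, and they are called untreated replicates 1 to 3 and EPA replicates 4 to 6.

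MAP3Ks stand at the top of a relay of 3 kinase levels. Stress, cytokines or small GTPases activate a MAP3K, which phosphorylates a MAP2K, which in turn phosphorylates a terminal kinase, in the stress arms JNK or p38. These arms are known for controlling survival, death and inflammatory signalling, and many MAP3Ks feed the same MAP2Ks. Members differ in what activates them: ASK1 responds to oxidants, TAK1 to cytokine receptors, the mixed lineage kinases to Rac and Cdc42. Neither the transcripts nor the proteins of the targets were measured, so the extent of each knockdown is unknown, and the reagents' sequences were not used here. Whether a catalogue item is a single duplex or a pool is not given in the sources used here.

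On the scale of the whole screen, wells without cells read 3738 ± 40 untreated and 3888 ± 29 with EPA (SD, n = 3 each). Wells of OTP3, the negative control siRNA, read 49202 ± 1292 and 24974 ± 2908, so 50.8% ± 3.50 (SE) of the signal was left. TOX, the positive control siRNA, had a well median of 4539 ± 277 and 3834 ± 123, near the wells without cells. The library median went from 22991 ± 1184 to 13565 ± 1404. Of the members, 12 lie on plate 2, 5 in its first row and 7 in row 15, and TNNI3K lies on plate 1 in row 7. In the first row of plate 2 the OTP3 wells kept 83.8% ± 6.41 (SE) of their signal with EPA and the well of cells alone kept 95.6% ± 5.37. In row 15 the OTP3 wells kept 60.7% ± 2.32, and in row 7 of plate 1 they kept 46.5% ± 6.44. Each member is therefore set beside the 2 OTP3 wells of its own plate row as well as beside the library.

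Relative to the median library well of the same plate and sample, 9 of the 13 members were higher and 2 were lower without EPA (limma, Benjamini-Hochberg adjusted p under 0.05). Over all library wells 33.9% were called higher and 35.6% lower. With EPA the counts were again 9 higher and 2 lower, beside 36.4% and 37.0% of all library wells. MAP3K9 was low in both groups, MAP3K10 was low without EPA, and TNNI3K was high without EPA and low with it. The members' median stood at 0.67 log2 units without EPA and 0.67 with it, where the median over all library wells was -0.0060 and 0.035. Set against the cell-bearing control wells (OTP3 and cells alone) of the same plate row, an alternative added after the data were seen, 0 members were higher by limma (0 also at an unadjusted p under 0.05) and 9 were lower in each group. Over all 939 library wells that reference gave 891 lower and 2 higher untreated, and 652 and 63 with EPA. Centred on the OTP3 wells of the whole plate, 0 members were higher by limma (0 also at an unadjusted p under 0.05) and 7 lower without EPA, but 6 were higher and 4 lower with EPA. Of the 939 library wells, 862 were then lower and 5 higher untreated, and 607 and 127 with EPA. Wells of other genes in the same rows were often high too. In the first row of plate 2, 12 of the 15 wells that target other genes were called higher without EPA and 13 with it, with medians of 0.82 and 1.39 log2 units. In row 15 it was 5 and 6 of 13, with medians of 0.23 and 0.20. The part of plate row in the members' counts was not tested.

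In the comparison that asks for synthetic lethality, EPA minus untreated, 1 member was lower, TNNI3K, and 4 were higher, MAP3K2, MAP3K3, MAP3K4 and MAP3K5, while 8 did not pass. Negative values mark wells that lost more signal under EPA than the plate's median well did. Over all library wells 15.2% were called lower and 29.0% higher, and the median was 0.20 log2 units beside 0.38 for the members. On the log2 scale the 3 EPA values did not overlap the 3 untreated values for 6 of the 13 members, against 54.8% of all library wells. These shares lie near those of the library, so the members as a set are described here by their individual values.

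TNNI3K encodes a kinase with ankyrin repeats that binds cardiac troponin I and is known chiefly from heart muscle. Its wells read 37262, 39072 and 47199 in untreated replicates 1 to 3 and 7382, 8135 and 7291 in EPA replicates 4 to 6. Every EPA value lay far under every untreated value. As a share of the OTP3 wells of the row the EPA values spread more widely, at 28.2%, 48.8% and 35.7%. The raw EPA readings were close together, at 1.95 times the blank level. The mean went from 41178 ± 5293 to 7603 ± 463 (SD, n = 3), so 18.5% ± 1.52 (SE) of the signal was left, or 9.93% ± 1.11 once the plate's blank level was subtracted. Without EPA the well stood 0.76 log2 units above the library median (SE 0.120, limma adjusted p = 0.000256), and with EPA at -0.98 (SE 0.120, adjusted p = 3.32e-05). The fitted difference was -1.75 (SE 0.170, 95% interval -2.13 to -1.37, limma adjusted p = 0.000169), the sixth lowest of 939 library wells.

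The wells around TNNI3K differed from it mainly without EPA. The 4 library wells next to it, left, right, above and below, read from 10950 to 21060 untreated, far under its 41178, and from 10304 to 14082 with EPA, above its 7603 but closer to it. Among the 20 library wells of its row it was the second highest untreated and the sixth lowest with EPA, where 10 of the other 19 were also called lower than the library median. Its reading was 90.7% ± 4.41 of the OTP3 wells of the same plate row without EPA and 37.6% ± 10.4 with EPA (SD, n = 3), and the groups did not overlap. In the difference it was the lowest of that row, where the other 19 wells had a median of 0.087 log2 units, 1 of them called lower and 4 higher. The 4 adjoining wells had differences from -0.34 to 0.72. With EPA the TNNI3K well was 1.95 times the blank level, and 141 of the 939 library wells read lower relative to their plate. Relative to the control wells of its row the difference was -1.17 (SE 0.256, limma adjusted p = 0.00332), and after blank subtraction it was -2.46. It passed in all 13 alternatives tried, at adjusted p from 5.3e-06 to 0.00332.

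The MEKK group holds MAP3K1 to MAP3K4. MAP3K1 (MEKK1) is a large kinase that is cut by caspases and also carries a ubiquitin ligase domain. MAP3K2 and MAP3K3 (MEKK2 and MEKK3) are close relatives that can also feed the MEK5 to ERK5 arm, and MAP3K4 (MEKK4) is activated by GADD45 proteins. All 4 were above the library median in both groups. In EPA minus untreated, which is relative to the library, 3 of the 4 were called higher, beside 29.0% of all library wells. Against the control wells of the same plate row it was 1 of the 4, beside 487 of all 939 library wells. After median polish it was 1 of the 4, beside 153 of 939.

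The MAP3K2 well read 44270, 37733 and 35439 untreated and 46332, 34446 and 35559 with EPA. The raw readings of the groups overlapped, with means of 39147 ± 4582 and 38779 ± 6565 (SD, n = 3), so 99.1% ± 11.8 (SE) of the signal was left where the OTP3 wells of its row kept 60.7%. As a share of those OTP3 wells it stood at 73.7% ± 4.37 untreated and 120% ± 16.1 with EPA, and the groups did not overlap on that scale. The fitted difference was 0.71 log2 units (SE 0.116, limma adjusted p = 0.00149), and against the control wells of the same row it was 0.59 (SE 0.136, adjusted p = 0.00430). After median polish, which removes what a plate row or column has in common, it was 0.27 (adjusted p = 0.213) and did not pass. MAP3K2 was the 1 member still called higher with EPA against the control wells of its own row. With that reference 487 of all 939 library wells were called higher too, with a median of 0.52 log2 units.

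MAP3K3 lay in the same row and read 60093, 45096 and 49829 untreated and 47580, 39531 and 36355 with EPA. These raw readings overlapped, and 79.6% ± 9.40 (SE) of the signal was left. The difference was 0.41 log2 units (SE 0.111, limma adjusted p = 0.0142). It was 0.28 against the control wells of the row (adjusted p = 0.0943), 0.06 after median polish (adjusted p = 0.820) and 0.36 without untreated replicate 2, and passed in none of these 3. Nor did it pass when centred on the plate's median difference (0.20, adjusted p = 0.180), after quantile normalization (-0.075), or after blank subtraction with median polish (0.027). It passed in 7 of the 13 alternatives. In its row of 20 library wells MAP3K3 was the highest in both groups, at 1.06 log2 units above the library median untreated and 1.47 with EPA.

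MAP3K4 lay in the first row of plate 2. Its readings were 49030, 41585 and 48921 untreated and 52649, 45506 and 39615 with EPA, overlapping, with 98.7% ± 9.64 (SE) left where the OTP3 wells of that row kept 83.8%. The difference was 0.71 log2 units (SE 0.111, limma adjusted p = 0.00128), and it was 0.49 after median polish (adjusted p = 0.0237). Beside the control wells of the row it was 0.10 (95% interval -0.27 to 0.47, adjusted p = 0.626). Of the 15 library wells in that row that target other genes, 9 were likewise called higher by limma and 0 lower (0 also at an unadjusted p under 0.05), with a median of 0.70.

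MAP3K1 differed from the other members of its group, since its difference did not pass. It read 47284, 50991 and 52905 untreated and 41570, 27252 and 27603 with EPA. All EPA readings were lower than all untreated ones, and EPA replicate 4 stood above the other two. The signal left was 63.8% ± 9.59 (SE), beside 60.7% for the OTP3 wells of its row. The difference was 0.06 log2 units (95% interval -0.24 to 0.35, limma adjusted p = 0.739). Centred on the median of the OTP3 wells of the whole plate it was 0.58 (adjusted p = 0.00182). With that centring 546 of all 939 library wells were called higher, with a median of 0.63. By their mean over the whole screen the OTP3 wells kept 50.8% of their signal, and the library median kept 59.0%.

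The ASK group is the pair MAP3K5 and MAP3K6. MAP3K5 (ASK1) is held inactive by reduced thioredoxin and is released by oxidants, and MAP3K6 (ASK2) forms complexes with it. Their wells lay in the first row of plate 2, with a single well between them, and MAP3K6 read less than MAP3K5 in every sample.

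MAP3K5 read 50892, 52416 and 60437 untreated and 60733, 54040 and 50491 with EPA. There was no loss to be seen in these overlapping readings, with means of 54582 ± 5128 and 55088 ± 5201 (SD, n = 3). At 101% ± 7.76 (SE) left it kept the most signal of the 13 members by this ratio, within the errors of MAP3K2 and MAP3K4. The difference was 0.75 log2 units (SE 0.132, limma adjusted p = 0.00213). Against the control wells of the row it was 0.14 (95% interval -0.20 to 0.47, adjusted p = 0.454), and after median polish 0.16 (adjusted p = 0.435).

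MAP3K6 read 39734, 48226 and 49499 untreated and 36573, 22945 and 22025 with EPA. The groups did not overlap, and 59.3% ± 11.0 (SE) of the signal was left. Its difference relative to the library was -0.05 log2 units (95% interval -0.41 to 0.30, limma adjusted p = 0.804), the third lowest of the 20 library wells in its row. Relative to the control wells of the row it was called lower with EPA, at -0.66 (SE 0.241, adjusted p = 0.0366), and its share of OTP3 came to 74.5% ± 11.0 untreated and 53.0% ± 17.0 with EPA (SD, n = 3), with the groups overlapping. After median polish it was -0.34 (adjusted p = 0.0984), and centred on the OTP3 wells of the plate it was 0.47 (adjusted p = 0.0165), so its sign depended on the reference. With the OTP3 centring 546 of all 939 library wells were called higher, with a median of 0.63.

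Both wells share a plate and a plate row, so centring on the library, on OTP3 or on the row's control wells cancels in their ratio within a sample. The log2 ratio of MAP3K5 over MAP3K6 was 0.36, 0.12 and 0.29 in the untreated samples and 0.73, 1.24 and 1.20 with EPA. All EPA values lay above all untreated ones, and the mean went from 0.26 ± 0.122 to 1.05 ± 0.280 (SD, n = 3 each; two-sided exact permutation p = 0.1, the lowest p available with 3 samples a group). The resulting shift of 0.80 was 0.91 after blank subtraction, 0.50 after median polish, 0.43 with both and 0.54 after quantile normalization. This pair was compared after its values were seen.

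MAP3K7 (TAK1) is the kinase that links receptors for TNF, interleukin-1 and TGF-beta to both the stress arms and NF-kB. Its well, also in the first row of plate 2, read 32615, 21037 and 23097 untreated and 23189, 17905 and 23844 with EPA. The groups overlapped, and the untreated mean of 25583 ± 6176 (SD, n = 3) was at the library median, 0.03 log2 units from it (limma adjusted p = 0.827). In a row where the OTP3 wells read 61741 ± 3901, this was 41.3% ± 8.72 of OTP3, and with EPA it was 42.7% ± 10.7. MAP3K7, set against the control wells of the row, was lower in both groups, at -1.35 untreated (SE 0.177, adjusted p = 3.32e-05) and -1.45 with EPA (SE 0.177, adjusted p = 3.2e-05). With that reference 891 of all 939 library wells were lower untreated and 652 with EPA, with medians of -1.16 and -0.76. The EPA difference of MAP3K7 was 0.51 relative to the library (adjusted p = 0.0548) and -0.10 relative to the row (95% interval -0.66 to 0.46, adjusted p = 0.746). Without untreated replicate 1, the highest of its readings, it was 0.63, and without EPA replicate 4 it was 0.60, and it passed in both. It did not pass without untreated replicate 2 (0.43) or 3 (0.46), or without EPA replicate 5 (0.60) or 6 (0.32).

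The mixed lineage kinases MAP3K9, MAP3K10 and MAP3K11 (MLK1, MLK2 and MLK3) are activated by Rac and Cdc42 and act mainly on JNK. They spread widely: MAP3K9 and MAP3K10 were the 2 lowest members without EPA, and MAP3K11 was above the library median. None of the 3 differed between EPA and untreated at the threshold when measured against the library.

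MAP3K9 read 15256, 11566 and 10974 untreated and 9370, 7231 and 6477 with EPA. It was the lowest of the 20 library wells in its row in both groups, a row whose library median was 0.86 log2 units above the plate's untreated and 1.36 with EPA. The mean was 12599 ± 2320 untreated and 7693 ± 1501 with EPA (SD, n = 3), or 20.4% ± 3.51 and 15.0% ± 3.15 of the OTP3 wells of the row. Relative to the library it was at -0.98 log2 units untreated (SE 0.108, limma adjusted p = 2.19e-05) and at -0.96 with EPA (SE 0.108, adjusted p = 1.76e-05). Against the control wells of the row it stood at -2.36 untreated (SE 0.147, adjusted p = 1.7e-07) and at -2.95 with EPA (SE 0.147, adjusted p = 1.21e-07). After median polish the values were -1.57 and -2.03. The 3 library wells next to it read from 27018 to 53869 untreated and from 25070 to 42627 with EPA, all well above it.

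The EPA difference of MAP3K9 depended on the reference. It was 0.02 log2 units relative to the library (95% interval -0.32 to 0.36, limma adjusted p = 0.922), and -0.59 relative to the control wells of the row (SE 0.208, adjusted p = 0.0321). After median polish it was -0.46 (adjusted p = 0.119). Centred on the OTP3 wells of the plate it was 0.54 and was called higher (adjusted p = 0.0393). With that centring 546 of all 939 library wells were called higher, with a median of 0.63. With EPA the MAP3K9 well was 1.98 times the blank level, so a further loss is compressed on the raw scale, and after blank subtraction its difference was -0.32 (adjusted p = 0.380).

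MAP3K10 read 15910, 18258 and 14447 untreated and 17606, 10711 and 10622 with EPA, the second lowest of the 20 library wells in row 15 without EPA. EPA replicate 4 lay within the untreated range and the other two lay under it. At -0.60 log2 units from the library median (SE 0.124, limma adjusted p = 0.00154) it was called lower without EPA, and with EPA it was at -0.23 (adjusted p = 0.124). It was 30.6% ± 3.59 of the OTP3 wells of its row untreated and 40.1% ± 10.9 with EPA (SD, n = 3), with overlap. The difference was 0.38 (95% interval -0.01 to 0.77, adjusted p = 0.105).

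MAP3K11 read 34758, 33223 and 32727 untreated and 24117, 18208 and 18616 with EPA. The groups did not overlap on the raw scale, and the 60.5% ± 5.78 (SE) that was left is beside 60.7% for the OTP3 wells of its row. Relative to the library it stood at 0.45 log2 units in each group, with a difference of -0.0018 (95% interval -0.29 to 0.28, limma adjusted p = 0.993). It made up 63.4% ± 1.71 of the OTP3 wells of the row untreated and 62.9% ± 8.03 with EPA (SD, n = 3).

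MAP3K12 (DLK) and MAP3K13 (LZK) carry leucine zippers and are best known as JNK activators in injured neurons. MAP3K12 read 33069, 33078 and 27634 untreated and 25785, 15252 and 11897 with EPA, without overlap on the raw scale. MAP3K13 read 27612, 34282 and 26516 untreated and 35002, 16158 and 22769 with EPA, and here EPA replicate 4 lay above all untreated readings and the other two lay under them. Both had a wide spread with EPA, with SDs of 7247 and 9561 on means of 17645 and 24643.

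Neither passed in the EPA comparison. The difference was -0.16 log2 units for MAP3K12 (95% interval -0.56 to 0.24, limma adjusted p = 0.485). For MAP3K13 it was 0.41 (95% interval -0.07 to 0.90, adjusted p = 0.144), and without EPA replicate 5 it was 0.65 and passed. The MAP3K13 difference did not pass with any other single replicate left out. Set against the control wells of the row, both were lower in each group: MAP3K12 at -0.81 untreated and -1.10 with EPA, and MAP3K13 at -0.90 and -0.61 (limma adjusted p between 0.000166 and 0.00703). Most library wells were lower with that reference, 891 of 939 untreated and 652 with EPA, with medians of -1.16 and -0.76. Relative to the library MAP3K12 was higher without EPA (0.35, adjusted p = 0.0333), a call lost without untreated replicate 1 (0.36) or 2 (0.26), and MAP3K13 was higher with EPA (0.67, adjusted p = 0.00251).

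The spread between samples does not hold all of the error, because each member has 1 well at 1 position in every sample. The library has 13 catalogue items on 2 wells each, none of them a member. Between such wells the absolute difference had a median of 0.56 log2 units without EPA and 0.64 with it. For EPA minus untreated the median was 0.37 and the largest value 0.71. The members' differences are relative to the plate's median well, which is a different measure from a gap between 2 wells. They were -1.75 for TNNI3K, 0.75 for MAP3K5, 0.71 for MAP3K2, 0.71 for MAP3K4 and 0.41 for MAP3K3. With only 13 such items, their largest gap sets no limit for the extremes of 939 wells. The part of well position in the members' differences was not tested.

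The kinases around the members in the pathway were read from lists chosen with earlier results of these data known. Of 30 genes in these lists 29 were in the file, on 30 wells because TAOK2 has 2. In EPA minus untreated 5 of the 30 wells were lower and 12 higher, with a median of 0.31 log2 units, beside the 15.2%, 29.0% and 0.20 of all library wells. After median polish 5 were lower and 3 higher.

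By level, the 4 MAP2Ks of the stress arms had 0 lower (0 also at an unadjusted p under 0.05) and 2 higher by limma, the 3 JNK genes 1 and 1, and the 4 p38 genes 1 and 1. The 7 MAP4Ks, kinases that act on MAP3Ks, had 1 lower and 5 higher, and 4 of them share the first row of plate 2 with members. The 12 wells of other MAP3K-level kinases had 2 lower and 3 higher. The lowest by the moderated statistic were TAOK2, a MAP3K that activates p38, and MAPK12, the gamma form of p38.

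Both TAOK2 wells were lower with EPA, at -0.99 log2 units on plate 2 (SE 0.163, limma adjusted p = 0.00162) and -0.45 on plate 3 (SE 0.119, adjusted p = 0.0128). The readings went from 40609 ± 5231 to 12638 ± 4043 on plate 2 and from 44917 ± 2680 to 18748 ± 1311 on plate 3 (SD, n = 3). MAPK12 was at -0.77 (SE 0.154, adjusted p = 0.00360), its well going from 22251 ± 1615 to 7822 ± 662. All 3 wells still passed after median polish. Against the control wells of their plate rows the plate 3 TAOK2 well (-1.06) and MAPK12 (-0.44) passed, and the plate 2 TAOK2 well (-0.50, adjusted p = 0.0551) did not.

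The highest by the moderated statistic were MAP4K3 (0.73, SE 0.106, limma adjusted p = 0.000971) and MAP4K2 (0.72, SE 0.112, adjusted p = 0.00123), both in the first row of plate 2. Their wells read 39620 ± 3706 and 53414 ± 1601 untreated, and 39872 ± 8399 and 53341 ± 7795 with EPA (SD, n = 3). Neither passed against the control wells of that row, at 0.12 and 0.11 (adjusted p = 0.639 and 0.552), nor after median polish (adjusted p = 0.0757 and 0.524). By the size of the difference MAP2K7, in row 15 of plate 2, was the highest of the 30 wells, at 0.84 (SE 0.132, limma adjusted p = 0.00134). It passed against the control wells of its row (0.71, adjusted p = 0.00443) and after median polish (0.63, adjusted p = 0.00324). With the row reference 487 of all 939 library wells were called higher too.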

How the data were processed

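The authors deposited the raw fluorescence intensity of every well in every sample, per the file headers. Per the labels' protocols it was read on a plate reader after incubation with a resazurin reagent. Whether they subtracted a blank or corrected for position is not given in the sources used here. The table held 1152 wells on 3 plates of 16 rows and 24 columns, and all 6 columns of samples were used. Depth does not apply to these intensities, and 3 samples per group limit the precision.

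The log2 intensity of each library well was centred on the median library well of its plate and sample, without a pseudocount or a low-value filter. limma 3.58.1 in R 4.3.3 (trend and robust options) fitted 939 wells over all 6 samples for 3 contrasts, each group against 0 and EPA minus untreated. Tests were two-sided, Benjamini-Hochberg adjusted over all 939, at 0.05. An exact permutation test of 3 against 3 cannot go below p = 0.1 and was used for 1 pair of members. Gene symbols came from RefSeq locus identifiers (GRCh38.p14). Errors of a percentage left were propagated from the SDs of both groups. The fit was tested on data simulated with independent noise in each well and no effect of plate row on the EPA difference. That test does not bear on plate position.

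Alternatives were OTP3 centring, blank subtraction (values floored at 3 blank SDs), median polish of plate rows and columns, both together, quantile normalization, centring the difference on each plate's median and leaving out each replicate. Centring on the median of the OTP3 and cells-alone wells of the same plate row was added after the data were seen. Every member is named. From the pathway lists, the 2 lowest and 2 highest past the threshold by the moderated statistic are named, and MAP2K7 for its largest positive difference. The members and lists were chosen with earlier results of these data known.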

Additional observations from a re-analysis of the deposited data

Results flagged for a closer look

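For 5 members the siRNA's position relative to the library differed between the EPA-treated and the untreated samples by the limma test of the difference itself. TNNI3K, at -1.75 log2 units, was above the library median without EPA and under it with EPA. MAP3K5 (0.75), MAP3K2 (0.71), MAP3K4 (0.71) and MAP3K3 (0.41) were above it in both groups and further above it with EPA. MAP3K4 and MAP3K5 lie in the first row of plate 2, where the OTP3 wells kept 83.8% of their signal with EPA. The part of plate position in these values was read only through the alternatives: against the control wells of the same plate row TNNI3K (-1.17) and MAP3K2 (0.59) passed, and MAP3K3 (0.28), MAP3K4 (0.10) and MAP3K5 (0.14) did not. With that reference 71 of all 939 library wells were called lower and 487 higher, with a median of 0.52 log2 units.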

How the results depend on the processing

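The counts of members called kept within 1.5 times of the reported ones under blank subtraction alone and when any 1 replicate was left out, and TNNI3K passed as lower with EPA in all 13 alternatives. The choice of reference moved most other results. Centred on OTP3, 7 members were lower and 0 higher untreated by limma (0 higher also at an unadjusted p under 0.05), 4 were lower and 6 higher with EPA, and 11 were higher in EPA minus untreated. All siRNAs then gave 862 lower and 5 higher untreated, 607 and 127 with EPA, and 59 and 546 in the difference. Against the control wells of the same plate row, added after the data were seen, 9 members were lower and 0 higher in each group (0 higher also at an unadjusted p under 0.05), and 3 were lower and 1 higher in the difference. All siRNAs gave 891 and 2, 652 and 63, and 71 and 487 there.

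Median polish left 5 members higher untreated, 4 lower with EPA and 1 higher in the difference, with 153 of all siRNAs higher there. Since members fill 5 and 7 of the 20 library wells of their rows on plate 2, it can remove what they share. With blank subtraction too, 4 members were higher untreated, 4 lower and 5 higher with EPA, and 0 higher in the difference by limma (1 at an unadjusted p under 0.05), with 219 of all siRNAs lower untreated and 129 higher in the difference. Quantile normalization left 1 member higher in the difference, and centring on the plate's median difference 131 of all siRNAs.

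Of 403 single values of members under an alternative, 44 turned sign where a call was made in either setting, 31 lost a call and 13 gained one. With OTP3 centring the untreated values became -0.062 (MAP3K1), -0.43 (MAP3K2), -0.035 (MAP3K3), -0.18 (MAP3K4), -0.20 (MAP3K6), -1.06 (MAP3K7), -0.65 (MAP3K11), -0.75 (MAP3K12), -0.84 (MAP3K13) and -0.32 (TNNI3K). With EPA they became -0.036 (MAP3K7), -0.13 (MAP3K11) and -0.40 (MAP3K12), and the differences 0.47 (MAP3K6) and 0.52 (MAP3K11). Against the row's control wells the untreated values were -0.12 (MAP3K1), -0.49 (MAP3K2), -0.092 (MAP3K3), -0.47 (MAP3K4), -0.23 (MAP3K5), -0.49 (MAP3K6), -1.35 (MAP3K7), -0.70 (MAP3K11), -0.81 (MAP3K12), -0.90 (MAP3K13) and -0.16 (TNNI3K). With EPA they were -0.19 (MAP3K1), -0.36 (MAP3K4), -0.096 (MAP3K5), -1.15 (MAP3K6), -1.45 (MAP3K7), -0.83 (MAP3K11), -1.10 (MAP3K12) and -0.61 (MAP3K13), and the MAP3K9 difference was -0.59. Median polish gave MAP3K4 -0.066 and MAP3K7 -0.56 untreated, and MAP3K6 -0.050 and MAP3K7 -0.48 with EPA. With blank subtraction too these were -0.088, -0.61, -0.037 and -0.50. Quantile normalization turned the MAP3K3 difference to -0.075. The causes were not tested beyond the change of reference that each alternative makes.

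No paired analysis was possible because the columns of the table are numbered 1 to 6 through both groups and share no replicate number. Signal over the blank limits the low wells: TNNI3K and MAP3K9 with EPA were 1.95 and 1.98 times the blank.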
